A study of Caenorhabditis elegans with 4 samples.

Results

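The fbxc genes are the C family of F-box genes of Caenorhabditis elegans. They were taken as every gene whose symbol is fbxc followed by a number, which gave 56 of the 46926 genes in the count matrices, and all 56 matched the annotation by gene ID. Their RNA was read in single nuclei of day 1 adult worms, in 1 library for each of 4 conditions, made from about 3000 whole worms that were homogenized before their nuclei were stained with Hoechst, sorted and captured with the 10x 3′ assay. Ctrl was the N2 wild type on HT115 bacteria carrying the empty L4440 vector. The ent-1KO and ent-2KO worms were knockouts of 1 nucleoside transporter gene each and ate the same control bacteria. The ent-1KO;ent-2KD worms carried the ent-1 knockout and ate HT115 bacteria expressing ent-2 RNAi, so that feeding with HT115 was shared by all worms. With 1 library per condition there is no replicate error and no test between conditions. Each 95% interval given here, exact Poisson for levels and exact conditional binomial for log2 ratios, covers counting error only.

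F-box proteins are the substrate receptors of SCF ubiquitin ligases. The F-box binds a Skp1-related adaptor (SKR proteins in the worm), the adaptor sits on the cullin CUL-1, and the remainder of the F-box protein chooses what is marked for degradation by the proteasome. Nematodes carry very many F-box genes, often in tandem clusters, and the substrates of most fbxc products are not known. In the worm germline, SCF-type ligases are known for the turnover of regulators of meiosis and of the passage from oocyte to embryo.

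Levels are given as CPM, the UMIs (unique molecular identifiers, each standing for a captured transcript) of a gene per 1000000 UMIs of the same class of nuclei in the same library. UMIs of a 3′ assay were not divided by transcript length, so levels of different genes are set side by side with caution. Nuclei were grouped without the fbxc genes. Germline-like nuclei were split into oocyte-like nuclei, nuclei of 4 sub-clusters not named oocyte in which Y46H3C.7 was a leading gene (called Y46H3C.7-led), and the remaining germline-like nuclei. Sub-cluster 12, led by H37A05.4, also had Y46H3C.7 among its leading genes but was named oocyte and counted as oocyte-like. Of the 17710 remaining nuclei, 6425 (36.3%) lay in a pair of sub-clusters with spp-17, dig-1 and dct-18 among their leading genes, of which 1, with 2368 nuclei, had 0 germline markers raised over the median germline sub-cluster, so the class is mixed. None of the 4 Y46H3C.7-led sub-clusters (7, 9, 10 and 11) reached a name from the germline marker lists either. Their best list had a median log2 ratio of 0.19, -0.30, -0.08 and -0.37, with 2, 0, 4 and 1 markers raised. They are called germline-like from the first clustering only. The 25 oocyte markers summed to 14697, 16111, 16548 and 19169.7 CPM in oocyte-like nuclei of ctrl, ent-1KO, ent-2KO and ent-1KO;ent-2KD and to 7213, 7918, 7407 and 6917 CPM in the remaining germline-like nuclei. Embryo-like, sperm-like and somatic classes were named from marker genes in the same way, and 1 cluster with no name, in which clec-266 was a leading gene as in both embryo-like clusters, is called the clec-266 cluster.

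The libraries held 21009254 to 32714922 UMIs and 10577 to 13151 kept nuclei, with medians of 1392 to 1834.5 UMIs per nucleus. Of 51854 distinct barcodes, 293 occurred in more than 1 library, and 530 of the 46662 kept nuclei carried such a barcode. Over all kept nuclei, the targeted genes followed the labels: ent-1 stood at 139.97 CPM in ctrl, 16.9 in ent-1KO, 142 in ent-2KO and 14.5 in ent-1KO;ent-2KD, and ent-2 at 26.4, 24.5, 9.46 and 16.8 CPM. These pooled levels also take in the make-up of each library, and levels within tissues are not given here. The ent-1KO;ent-2KD library stood apart in its make-up. Germline-like nuclei were 27.9% of its nuclei against 57.7% to 60.3% in the other libraries, oocyte-like nuclei 3.59% against 8.4996% to 10.9%, the clec-266 cluster 0.09% against 3.88% to 5.77%, and embryo-like nuclei 0.00% against 1.97% to 2.97%. These shares hold with the libraries integrated, and the germline classes of ent-1KO;ent-2KD differed strongly without integration (counts below). Because of this make-up, values within a class are given for each library. The counts of members for the germline classes and for germline against soma are also given over ctrl, ent-1KO and ent-2KO alone.

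The 56 members lay on 4 chromosomes in the annotation (genome build WBcel235): 40 on II, 13 on IV, 1 on V and 2 on X. Annotation called 48 of them protein-coding and 8 pseudogenes. Joined wherever the gap was at most 10 kb, they formed 21 runs, of which 5 had more than 1 member. The longest run, II: 907448 to 993179, held 23 members over 85.7 kb. A run on IV from 891239 to 911196 held 10 members in a regular ladder, in which starts repeated every 4152 or 4153 bp, taking alternate genes, and lengths alternated between 1376 bp and 1781 or 1782 bp. Such evenly spaced copies can share reads, and their sequences were not compared here.

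Over kept nuclei 48 members had at least 1 UMI, with 34737 UMIs in all. The other 8 (fbxc-1, fbxc-2, fbxc-3, fbxc-4, fbxc-5, fbxc-8, fbxc-10 and fbxc-11) had none in any barcode and were all in the ladder on IV, of which only fbxc-12, with 226 UMIs, and fbxc-9, with 16, were read. Whether these genes are silent or their reads were dropped as shared between copies cannot be told apart from these files. A minimum of 50 UMIs over the libraries and 5 CPM in at least 1 class left 39 members, 4 of them pseudogenes (fbxc-37, fbxc-41, fbxc-46 and fbxc-57). The 9 members below it (fbxc-6, fbxc-7, fbxc-9, fbxc-15, fbxc-16, fbxc-35, fbxc-38, fbxc-53 and fbxc-55) had 5 to 36 UMIs each. Reads were concentrated in few genes. fbxc-50 had 7628 UMIs, fbxc-44 had 5726 and fbxc-45 had 4093, together 50.2% of all member UMIs. The next most read were fbxc-46 with 2172, fbxc-32 with 1912, fbxc-42 with 1597, fbxc-52 with 1263 and fbxc-43 with 1200, and these 8 members held 73.7%. fbxc-47 (966 UMIs), fbxc-39 (804), fbxc-51 (675) and fbxc-36 (644) completed the 12 with the most.

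**Figure D1:**
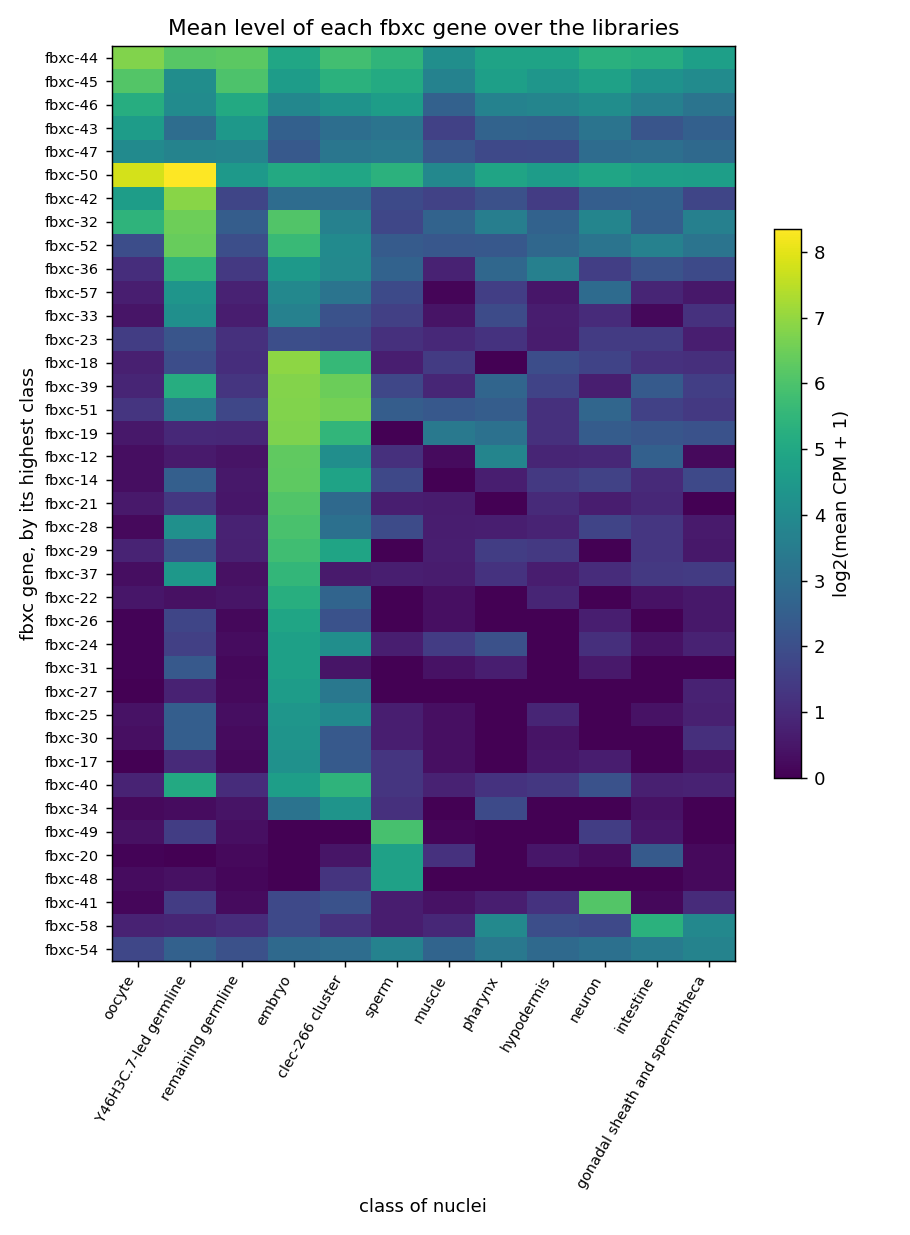
Mean level of each of the 39 fbxc genes above the minimum (rows, ordered by the class in which each was highest) in 12 classes of nuclei (columns), as log2(mean CPM + 1) over the libraries with at least 50 nuclei of the class. The 5 oocyte-highest genes, the 8 Y46H3C.7-led genes, the 18 embryo-highest genes and the 3 sperm-highest genes are drawn together, and fbxc-41 stands out in neuron-like nuclei. The intestine value of fbxc-58 rests mostly on ent-1KO;ent-2KD (87.4 CPM, against 22.2 to 23.9 CPM in the other libraries).

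The members fell into groups by the class in which their mean level was highest. This minimum lets a gene in through the class where it is high, so the groups are a description. Of the 39 members, 18 were highest in embryo-like nuclei, 8 in Y46H3C.7-led nuclei, 5 in oocyte-like nuclei, 3 in sperm-like nuclei, 2 in the clec-266 cluster, and 1 each in neuron-like, intestine-like and gonadal sheath or spermatheca-like nuclei. The highest class stood at least 2-fold over the next for 13 of the 18 embryo-highest members, for all 3 sperm-highest members (fbxc-20, fbxc-48 and fbxc-49), for fbxc-34, for fbxc-41 and for fbxc-58, but for 1 of the 8 Y46H3C.7-led members (fbxc-42) and for none of the 5 oocyte-highest members. Over ctrl, ent-1KO and ent-2KO alone, fbxc-58 (from 2.71-fold to 1.36-fold) and the embryo-highest fbxc-37 (from 2.17-fold to 1.65-fold) no longer stood 2-fold over the next class, whereas the Y46H3C.7-led members fbxc-36 (2.43-fold) and fbxc-52 (2.07-fold) did. There fbxc-40 was highest in Y46H3C.7-led and fbxc-54 in sperm-like nuclei, both at under 2-fold. Counted in ctrl alone, the numbers were 18 for embryo-like, 9 for Y46H3C.7-led, 4 for sperm-like and 3 for oocyte-like nuclei. The share of genes above the minimum that were highest in embryo-like nuclei was 46.2% for fbxc, 6.21% for the F-box A family (fbxa), 93.1% for the F-box B family (fbxb), 7.5% for the BTB and MATH domain genes (bath), which serve CUL-3 in place of CUL-1, and 8.94% for all 17328 genes above the minimum. For Y46H3C.7-led nuclei the share was 20.5% for fbxc and 11.1% for all genes, and for the clec-266 cluster 5.13% and 2.54%. For oocyte-like nuclei it was 12.8% and 9.89%, and for sperm-like nuclei 7.69% and 10.6%. The oocyte-highest and sperm-highest members were thus not far from the share of all genes.

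By position, of the 18 members above the minimum in the run of 23 on II, 10 were highest in embryo-like nuclei, 5 in Y46H3C.7-led nuclei, 2 in the clec-266 cluster and 1 (fbxc-41) in neuron-like nuclei. The neighbours fbxc-21, fbxc-22 and fbxc-26 (II: 1689698 to 1694630) were all highest in embryo-like nuclei, and the neighbours fbxc-43 and fbxc-44 (II: 4234903 to 4237751) were both highest in oocyte-like nuclei. fbxc-45 (IV: 2919827 to 2922243), fbxc-46 (V: 18136704 to 18137714) and fbxc-47 (IV: 3805519 to 3806712), the other oocyte-highest members, had no member within 10 kb, nor had fbxc-50 (II: 3246316 to 3248123). Reads of fbxc-26 and fbxc-20 could be split with a gene overlapping on the same strand (F58E1.13 and F42G2.7), and fbxc-19 and fbxc-47 overlap genes on the other strand, so their levels are less certain.

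With the classes used here, the level of the whole family, summed over its members, was highest in embryo-like nuclei. It was 1324 CPM in ctrl (95% interval 1221 to 1433), 1572 in ent-1KO (1463 to 1687) and 1228 in ent-2KO (1143 to 1318). Y46H3C.7-led nuclei followed with 1063, 1239 and 1099 CPM in those libraries and 525 CPM in ent-1KO;ent-2KD, and the clec-266 cluster had 606, 897 and 657 CPM. Oocyte-like nuclei held 563, 638, 573 and 472 CPM, against 254, 296, 260.2 and 219 CPM in the remaining germline-like nuclei. In ctrl, ent-1KO and ent-2KO the order from embryo-like through Y46H3C.7-led and oocyte-like to remaining germline-like nuclei was the same. Neighbours in it had separate intervals, except that those of embryo-like (from 1143 CPM) and Y46H3C.7-led nuclei (1056 to 1143 CPM) met in ent-2KO. At clustering resolution 0.4 there was no clec-266 cluster. Embryo-like nuclei then numbered 919, 767 and 939 in ctrl, ent-1KO and ent-2KO, against 310, 259 and 332 here. The first place of embryo-like nuclei may depend on this split, and their summed level at that resolution is not given here. Sperm-like nuclei stood at 320.0, 321, 402 and 263 CPM and neuron-like nuclei at 281, 348, 310.0 and 171 CPM, and the intervals of these classes overlapped in each library except ent-1KO;ent-2KD. Muscle-like nuclei were lowest of the named classes, at 94.8, 118, 125 and 54.3 CPM.

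**Figure D2:**
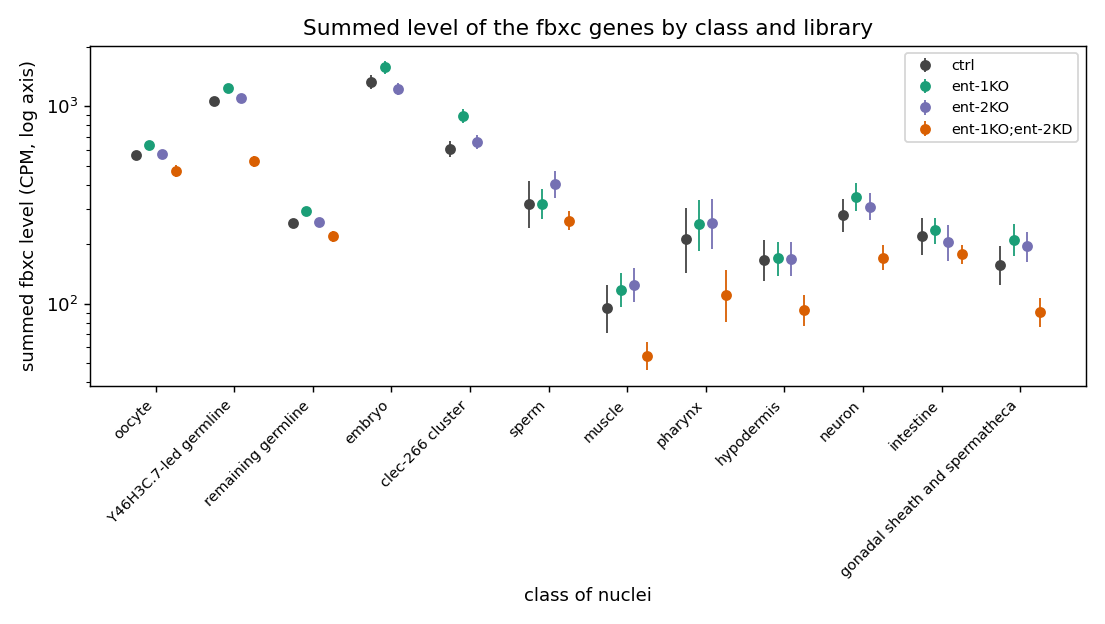
Summed level of the 56 fbxc genes (CPM, log axis) in each class of nuclei (horizontal axis) and library (colours), with exact 95% Poisson intervals as bars, for classes with at least 50 nuclei in a library. Embryo-like nuclei reached 1228 to 1572 CPM, oocyte-like nuclei 472 to 638 CPM and muscle-like nuclei 54.3 to 125 CPM, and ent-1KO;ent-2KD was the lowest library in most classes.

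Seen per nucleus, after each nucleus was thinned to 500 UMIs, 24.1%, 25.3%, 21.02% and 22.5% of oocyte-like nuclei in ctrl, ent-1KO, ent-2KO and ent-1KO;ent-2KD held a UMI of any member. Without thinning these shares were 65.5%, 77.5%, 67.1% and 73.0%. The thinned shares were 36.7%, 44.6%, 35.6% and 20.1% in Y46H3C.7-led nuclei, 43.9%, 47.9% and 44.6% in embryo-like nuclei, and 12.02%, 13.9%, 12.1% and 10.0% in the remaining germline-like nuclei. Muscle-like nuclei, the named class with the lowest summed level, gave 5.71%, 5.14%, 6.50% and 2.48%, below every germline share. The median UMIs per nucleus before thinning were 2653 to 3454 in oocyte-like and 1859 to 2272 in muscle-like nuclei.

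fbxc-50 was the most read member in oocyte-like nuclei. Its level there was 228 CPM in ctrl, 243 in ent-1KO, 240.3 in ent-2KO and 189.9 in ent-1KO;ent-2KD, and in the remaining germline-like nuclei it was 17.003, 22.3, 18.9 and 27.4 CPM. The lowest of the oocyte values was therefore well above the highest of the others. In Y46H3C.7-led nuclei, however, fbxc-50 was higher still in ctrl, ent-1KO and ent-2KO (339, 414 and 378 CPM), though not in ent-1KO;ent-2KD (171 CPM). After thinning, 9.34%, 9.89%, 9.61% and 10.7% of oocyte-like nuclei had an fbxc-50 UMI, against 0.714%, 0.811%, 0.847% and 0.367% of muscle-like nuclei.

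Against all other germline-like nuclei, the family as a whole was higher in oocyte-like nuclei, with log2 ratios of the summed level of 0.56 in ctrl, 0.34 in ent-1KO, 0.39 in ent-2KO and 0.65 in ent-1KO;ent-2KD. The size depended on how nuclei were grouped, since the mean of 0.48 became 0.24 at clustering resolution 0.4, 0.90 at resolution 1.6, 0.96 with fbxc genes among the variable genes and 1.13 with nuclei named by their highest marker list. With fbxc-50 left out, these ratios became 0.09 (-0.02 to 0.20), 0.00 (-0.08 to 0.08), -0.04 (-0.13 to 0.05) and 0.26 (0.11 to 0.41), so that in ctrl, ent-1KO and ent-2KO no difference was detectable without that gene. Members with at least 20 UMIs over both sides in each library could be compared, and a call needed a 2-fold difference in the same direction in every library. Of 13 such members 1 (fbxc-50) was called higher, where 1.64% of all genes compared were, and 4 (fbxc-28, fbxc-36, fbxc-52 and fbxc-57) were called lower, where 9.47% were. Over ctrl, ent-1KO and ent-2KO the numbers were 1 higher and 9 lower of 20, where 2.77% and 13.5% of all genes were called. The log2 ratio of fbxc-50 was 1.75 in ctrl, 1.16 in ent-1KO, 1.35 in ent-2KO and 1.52 in ent-1KO;ent-2KD. Over the 4 libraries pooled, the highest ratios after that of fbxc-50 (1.39) were those of fbxc-32 (0.91), fbxc-44 (0.56), fbxc-43 (0.43) and fbxc-22 (0.42), the last resting on 6 and 15 UMIs with an interval from -1.30 to 1.80. The lowest were fbxc-28 (-3.97, from 3 and 174 UMIs), fbxc-37 (-3.73), fbxc-36 (-3.39), fbxc-33 (-3.35) and fbxc-39 (-3.20).

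**Figure D3:**
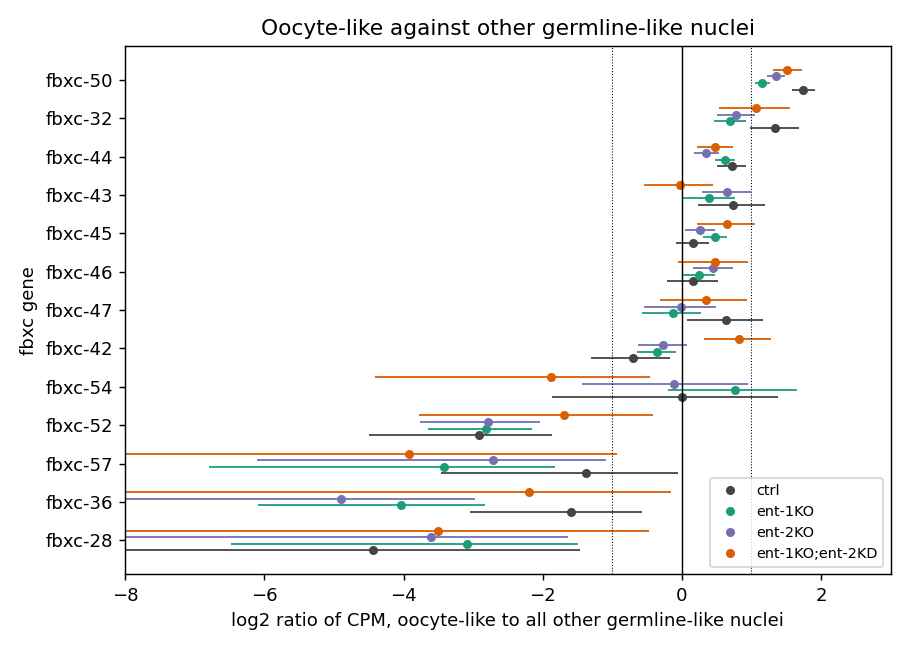
Log2 ratio of CPM between oocyte-like and all other germline-like nuclei for the 13 fbxc genes that could be compared (rows), 1 point per library with its exact 95% interval as a line. Dotted lines mark 2-fold. The points of fbxc-50 lie between 1.16 and 1.75, those of fbxc-44, fbxc-45 and fbxc-46 between 0.16 and 0.72, and those of fbxc-28, fbxc-36, fbxc-52 and fbxc-57 below the lower line.

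The comparison depended on the Y46H3C.7-led nuclei, which held many members at high levels. Against the remaining germline-like nuclei alone, the summed log2 ratio of oocyte-like nuclei was 1.15, 1.11, 1.14 and 1.11 in ctrl, ent-1KO, ent-2KO and ent-1KO;ent-2KD. Without the pair of sub-clusters in which spp-17 was a leading gene, these ratios were 1.13, 1.10, 1.11 and 0.98. Here 3 of 8 members were called higher (4.2% of all genes compared) and 0 lower (0.286%). Without ent-1KO;ent-2KD, 3 of 10 were called higher (6.16%) and 0 lower (0.902%). The 3 were fbxc-50 (3.47 pooled), fbxc-42 (3.24) and fbxc-32 (3.20). fbxc-32 stood at 45.1, 48.8, 46.5 and 29.7 CPM in oocyte-like nuclei and at 3.56, 6.14, 6.12 and 2.15 CPM in the remaining ones. fbxc-42 stood at 12.7, 28.5, 23.6 and 31.4 CPM, against 2.24, 3.11, 3.06 and 0.978 CPM. For both genes the intervals of the classes were apart in each library. Within the oocyte-like nuclei both were uneven. In ctrl they were far higher in the small sub-cluster led by H37A05.4 than in that led by inos-1 (values below). Y46H3C.7 was also a leading gene of the H37A05.4-led sub-cluster.

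The 5 members that were highest in oocyte-like nuclei were read at like levels in the remaining germline. fbxc-44 stood at 108, 129.8, 98.4 and 97.3 CPM in oocyte-like nuclei and at 67.2, 85.6, 76.9 and 69.6 CPM in the remaining germline-like nuclei of ctrl, ent-1KO, ent-2KO and ent-1KO;ent-2KD. fbxc-45 stood at 73.9, 91.1, 67.6 and 40.3 CPM against 75.1, 77.9, 68.7 and 30.9 CPM. The pseudogene fbxc-46 stood at 33.2, 45.02, 38.8 and 26.7 CPM against 32.0, 43.1, 32.9 and 21.5 CPM. The log2 ratios were -0.02 to 0.39 for fbxc-45 and 0.06 to 0.32 for fbxc-46, both largest in ent-1KO;ent-2KD with intervals that took in 0 there, and 0.36 to 0.68 for fbxc-44. fbxc-43 had 22.1, 18.3, 26.7 and 26.1 CPM against 15.3, 15.2, 19.8 and 34.02 CPM, so that its order turned in ent-1KO;ent-2KD, with a log2 ratio of -0.37 there against 0.27 to 0.54 in the other libraries. fbxc-47 had 17.001, 13.6, 11.3 and 17.8 CPM against 11.2, 15.1, 11.3 and 14.7 CPM and kept no order over the libraries (log2 ratios -0.15 to 0.61). All 5 were lower in Y46H3C.7-led nuclei than in oocyte-like nuclei in ctrl, and fbxc-45 stood there at 20.3, 21.4, 10.2 and 12.1 CPM over the libraries.

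Within the oocyte-like nuclei, fbxc-50 differed strongly between sub-clusters. It stood at 39.5, 35.3, 28.3 and 59.8 CPM in ctrl, ent-1KO, ent-2KO and ent-1KO;ent-2KD in the oocyte-like sub-cluster led by inos-1 and at 143, 115, 126 and 189.6 CPM in that led by lin-41. It was higher in the oocyte-like sub-cluster led by hmit-1.1 (415, 407, 449 and 247 CPM) and highest in that led by H37A05.4 and meg-3 (615, 774, 957 and 333 CPM). The order of the 4 sub-clusters was the same in every library. fbxc-42 and fbxc-32 followed it at the top, with 90.0 and 187 CPM in ctrl in the H37A05.4-led sub-cluster, against 1.01 and 7.10 CPM in the inos-1-led one. The H37A05.4-led sub-cluster was small, with 56 to 117 nuclei per library, and Y46H3C.7 was also among its 10 leading genes.

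**Figure D4:**
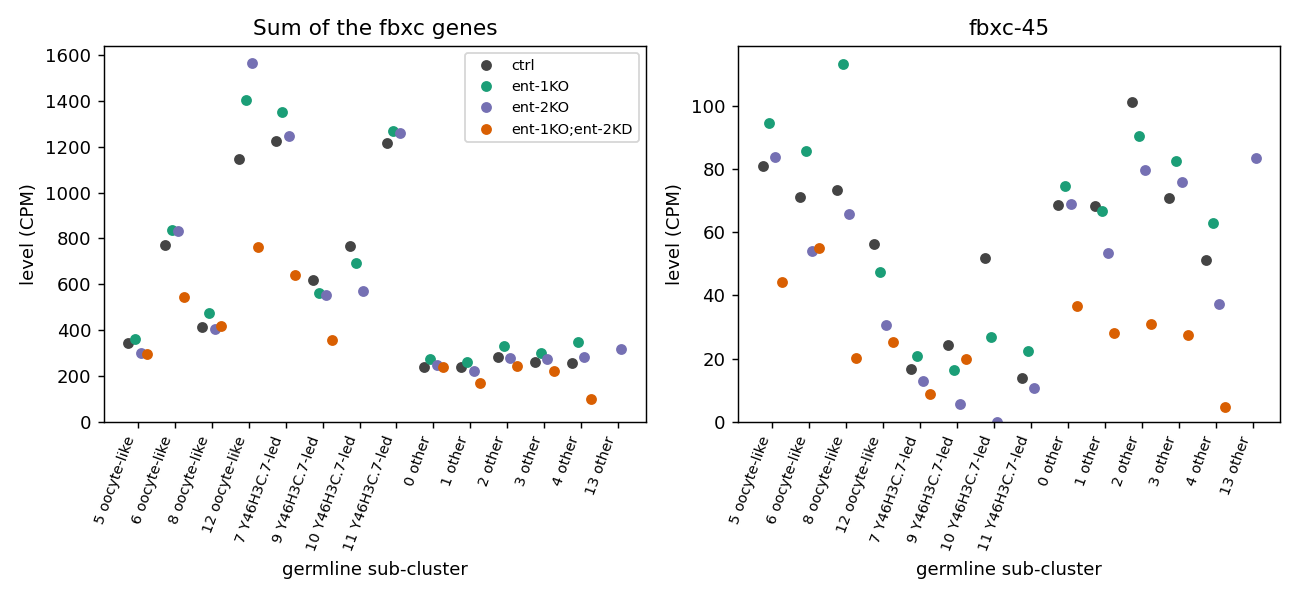
Summed level of the fbxc genes (left) and level of fbxc-45 (right), both in CPM, in the 14 germline sub-clusters (horizontal axis) by library (colours), for points with at least 50 nuclei. The sum climbs from 295 to 359 CPM in oocyte-like sub-cluster 5 to 763 to 1567 CPM in oocyte-like sub-cluster 12, whereas fbxc-45 is lower in Y46H3C.7-led sub-clusters 7, 9 and 11 than in the oocyte-like ones of ctrl.

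Y46H3C.7-led nuclei carried a set of members at higher levels than the remaining germline. The summed log2 ratio between these classes was 2.06, 2.07, 2.08 and 1.26 in ctrl, ent-1KO, ent-2KO and ent-1KO;ent-2KD, and 2.05, 2.06, 2.05 and 1.13 without the sub-clusters in which spp-17 was a leading gene. Of 12 members compared, 7 were called higher (19.2% of all genes) and 1 lower (2.42%). Without ent-1KO;ent-2KD, 12 of 17 were called higher (25.1%) and 1 lower (6.16%). The 7 were fbxc-42 (5.56 pooled), fbxc-57 (4.77), fbxc-52 (4.72), fbxc-36 (4.66), fbxc-28 (4.38), fbxc-32 (4.27) and fbxc-50 (4.01), and fbxc-45 was the lower one (-2.05).

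fbxc-42 stood at 119.6, 154, 125 and 63.8 CPM in Y46H3C.7-led nuclei of ctrl, ent-1KO, ent-2KO and ent-1KO;ent-2KD, and fbxc-32 at 93.7, 115, 106 and 46.9 CPM. fbxc-52 stood at 102, 104.5, 99.8 and 29.5 CPM there but at only 2.37 to 3.61 CPM in oocyte-like nuclei, unlike fbxc-50 and fbxc-32. fbxc-36 was alike, at 45.5, 63.4, 46.6 and 14.2 CPM against 0.257 to 2.77 CPM. In each of these genes ent-1KO;ent-2KD was the lowest library. The class was made up differently there. Sub-cluster 9, which had the lowest summed level of the 4 in ctrl (618 CPM), held 52.9% of its nuclei in ent-1KO;ent-2KD against 25.2% in ctrl, and sub-clusters 10 and 11 held 5.08% and 4.39% against 28.4% and 17.7%. fbxc-23 was the least read of the 8 members highest in this class, with a mean of 3.60 CPM. Oocyte markers in Y46H3C.7-led nuclei summed to 6608, 7595, 7406 and 14053 CPM (25 of 25 with a UMI in each library) and embryo markers to 268, 224, 263 and 102 CPM (19, 17, 15 and 12 of 20 with a UMI). The part of these markers in the difference between the libraries was not tested. fbxc-42 was itself among the 10 leading genes of 1 cluster, although the family was kept out of the clustering.

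Embryo-like nuclei, which came from ctrl, ent-1KO and ent-2KO only, carried most of the remaining members. Against all germline-like nuclei 15 of 26 members were called higher in the 3 libraries, where 18.3% of all genes were, and 4 lower, where 9.13% were. The largest pooled log2 ratios were those of fbxc-12 (7.32), fbxc-19 (6.68), fbxc-21 (6.58), fbxc-22 (6.37), fbxc-14 (6.22) and fbxc-18 (6.19). fbxc-18, the member with the highest mean in this class, stood at 126, 147 and 89.4 CPM in ctrl, ent-1KO and ent-2KO and at 2.34 CPM in germline-like nuclei of ctrl. fbxc-39 stood at 106, 125 and 103.8 CPM and fbxc-51 at 104.01, 104.3 and 115 CPM, both above fbxc-18 in ent-2KO. fbxc-19 stood at 102, 141 and 75.0 CPM, with ent-1KO the highest and ent-2KO the lowest of the libraries as for fbxc-18. The 4 members that were lower were fbxc-50 (-2.01 pooled), fbxc-43, fbxc-44 and fbxc-45, all among the 8 members with the most UMIs. Members with high levels in both embryo-like and Y46H3C.7-led nuclei were fbxc-32, at 45.5, 81.8 and 75.0 CPM in embryo-like nuclei, and fbxc-52, at 54.2, 34.8 and 59.1 CPM. The other embryo-highest members (fbxc-14, fbxc-17, fbxc-24, fbxc-25, fbxc-26, fbxc-27, fbxc-28, fbxc-29, fbxc-30, fbxc-31 and fbxc-37) had mean levels of 17.5 to 76.1 CPM there.

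fbxc-51 (89.2, 103.99 and 96.0 CPM) had the highest mean level in the clec-266 cluster, although fbxc-39 was above it in ent-1KO (139 CPM). Embryo markers summed to 322, 439.6 and 262 CPM in that cluster against 1634, 1574 and 1664 CPM in embryo-like nuclei. fbxc-40, 1 of the 2 members highest in that cluster, stood at 28.8, 56.7 and 40.0 CPM, against 35.7, 53.1 and 39.0 CPM in Y46H3C.7-led nuclei, and these did not differ beyond their intervals. fbxc-34, the other, stood at 13.7, 22.1 and 20.6 CPM, against 6.50, 8.18 and 9.58 CPM in embryo-like nuclei.

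Sperm-like nuclei had 3 members at higher levels than any other class. fbxc-49 stood at 45.7, 48.4, 73.6 and 71.0 CPM in sperm-like nuclei of ctrl, ent-1KO, ent-2KO and ent-1KO;ent-2KD and at no more than 5.74 CPM in any other class of a library. fbxc-20 stood at 17.1, 10.2, 46.6 and 32.1 CPM, with 5.05, 3.98, 4.44 and 3.34 CPM in intestine-like nuclei, and fbxc-48 at 17.1, 15.3, 41.7 and 31.3 CPM. The ctrl values of the last pair rest on 3 UMIs each, and their intervals (3.54 to 50.1 CPM) take in the values of all other libraries. Of fbxc-20, the ent-1KO (2.78 to 26.1 CPM) and ent-2KO (28.1 to 72.8 CPM) intervals were apart. None of the 3 had enough UMIs on both sides in each library for a call against the germline, where 0 of 13 members were called higher (10.6% of all genes) and 3 (fbxc-32, fbxc-42 and fbxc-50) lower (1.36%).

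The family was higher in germline-like than in somatic nuclei. Summed levels were 422, 538, 472 and 334 CPM in germline-like and 179, 203, 197 and 109 CPM in somatic nuclei of ctrl, ent-1KO, ent-2KO and ent-1KO;ent-2KD, which gave log2 ratios of 1.24, 1.40, 1.26 and 1.62. Soma here means the named tissues. It leaves out ribosomal-rich nuclei and unnamed clusters in which nlp-33 was a leading gene, together 13.99% to 32.5% of a library, and with both added the ratios were 1.18, 1.41, 1.34 and 1.96. With the estimated free RNA of each library subtracted, their mean went from 1.38 to 4.22. Of 17 members compared, 8 were called higher in the germline (21.8% of all genes), namely fbxc-28, fbxc-32, fbxc-42, fbxc-43, fbxc-44, fbxc-45, fbxc-46 and fbxc-50, and 3 lower (35.5%), namely fbxc-19, fbxc-41 and fbxc-58. Without ent-1KO;ent-2KD, 11 of 23 were called higher (22.6%) and 4, with fbxc-54 added, lower (36.4%).

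Germline transcripts as a whole were also read in somatic nuclei. The 28 germline markers stood in muscle-like nuclei at 14.5% to 22.7% of their germline level, the summed members at 16.2% to 26.4% and fbxc-50 at 9.82% to 14.2%. The summed members were thus slightly above the markers in each library and fbxc-50 below them, and the part of germline transcripts in the muscle-like sum was not tested. fbxc-19 stood at 10.5, 7.70, 11.3 and 8.13 CPM in muscle-like nuclei against 1.39, 0.855, 0.888 and 0.230 CPM in germline-like nuclei of ctrl, ent-1KO, ent-2KO and ent-1KO;ent-2KD, above its germline level in each library. In intestine-like nuclei the markers stood at 26.5% to 39.3% of the germline level and the members at 43.3% to 53.3%, and in neuron-like nuclei at 32.5% to 52.7% and 51.2% to 66.6%. The highest member was fbxc-44 in muscle-like (mean 16.5 CPM), hypodermis-like (28.03 CPM), gonadal sheath or spermatheca-like (25.1 CPM) and remaining germline-like nuclei (74.8 CPM), and fbxc-50 in pharynx-like nuclei (28.5 CPM), that is, the same abundant germline members.

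fbxc-41 and fbxc-58, like fbxc-19, were the members called lower in the germline than in soma. The pseudogene fbxc-41 (II: 948432 to 950507) stood at 88.6, 70.9, 59.3 and 57.3 CPM in neuron-like nuclei of ctrl, ent-1KO, ent-2KO and ent-1KO;ent-2KD, a mean of 69.1 CPM against 3.25 CPM in its next class. In germline-like nuclei it stood at 0.433, 0.214, 0.137 and 1.03 CPM, and it was the 1 of 14 members called higher in neuron-like than in germline-like nuclei (7.42 pooled, where 17.7% of all genes were called), while fbxc-42 and fbxc-50 were called lower (6.11%). After thinning 3.93%, 3.50%, 3.26% and 2.60% of neuron-like nuclei held an fbxc-41 UMI, against none in muscle-like nuclei, where 1 UMI was read in all before thinning. The upper 95% limits (Clopper-Pearson) of 1.31%, 0.992%, 1.04% and 0.338% there concern nuclei with a UMI at this depth, not nuclei that hold the transcript. The genes on either side of it, fbxc-32 and fbxc-57, were both highest in Y46H3C.7-led nuclei.

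fbxc-58 (IV: 9371508 to 9373206) stood at 22.7, 23.9, 22.2 and 87.4 CPM in intestine-like nuclei, with a mean of 39.0 CPM against 14.4 CPM in pharynx-like nuclei. In gonadal sheath or spermatheca-like nuclei it stood at 18.2, 16.1, 16.4 and 4.54 CPM. In pharynx-like nuclei of ent-2KO it stood at 31.9 CPM (6 UMIs, 11.7 to 69.5 CPM). The interval of the intestine value there (10 UMIs, 10.7 to 40.8 CPM) overlapped with it, so that these did not differ beyond counting error. Without ent-1KO;ent-2KD the means were 22.9 CPM in intestine-like and 16.9 CPM in gonadal sheath or spermatheca-like nuclei, so that the lead of the intestine rests on that library. In intestine-like nuclei, ctrl, ent-1KO and ent-2KO were level and ent-1KO;ent-2KD was apart, with a log2 ratio to ctrl of 1.87 (0.98 to 3.10) from 157 and 9 UMIs. The intestine markers, 24 of 24 with a UMI in each library, summed to 24382, 24367, 22881 and 25548 CPM in the same nuclei. fbxc-54, the member highest in gonadal sheath or spermatheca-like nuclei, had a mean of 12.3 CPM there against 11.9 CPM in sperm-like nuclei, an order that turned without ent-1KO;ent-2KD (11.6 and 14.9 CPM).

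Among the partners of the family, from a list of 27 SCF genes, the highest level was that of cand-1, which exchanges F-box proteins on the cullin, with a mean of 711 CPM in embryo-like nuclei, and the lowest was that of skr-6, with 0 UMIs. The sum of the list was 3374, 3153 and 3348 CPM in embryo-like nuclei and 1648, 1707, 1586 and 1641 CPM in oocyte-like nuclei, so that embryo-like nuclei stood above oocyte-like nuclei in both the partners and the fbxc genes. Against the germline 14 of 23 SCF genes were called higher in embryo-like nuclei (18.3% of all genes) and 1 lower (9.13%), and 9 of 18 were called higher in Y46H3C.7-led than in remaining germline-like nuclei (19.2%) and 0 lower (2.42%). In oocyte-like against all other germline-like nuclei 1 of 18 was called higher (1.64%) and 6 lower (9.47%). The higher one was the adaptor gene skr-11, named after its values were seen, at 142, 137, 126 and 89.6 CPM against 25.3, 29.6, 26.4 and 13.1 CPM. Of the 13 F-box genes listed outside the A, B and C families, dre-1 reached the highest mean (571 CPM, intestine-like nuclei) and pes-2.1 the lowest, with 1 UMI. The summed fbxb genes reached 7853, 9184 and 6605 CPM in embryo-like nuclei, above the fbxc genes in each library.

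Outside the family, the 5 genes whose log2(CPM + 1) was most correlated with that of the summed members over 46 points of class and library were the replication licensing factor gene cdt-1 (Pearson r = 0.924), Y111B2A.25 (0.919), the spindle checkpoint gene mdf-2 (0.905), F54D5.5 (0.897) and pig-1, a kinase gene of asymmetric division (0.894). The points share libraries and their mix of nuclei, and the values are a description.

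Between conditions, the summed members of germline-like nuclei were higher than in ctrl in both knockouts and lower in ent-1KO;ent-2KD. In all germline-like nuclei the summed members stood at 422 CPM in ctrl, 538 in ent-1KO, 472 in ent-2KO and 334 in ent-1KO;ent-2KD. The log2 ratios to ctrl were 0.35 (0.30 to 0.40), 0.16 (0.11 to 0.22) and -0.34 (-0.40 to -0.27), where the medians over all genes were 0.02, -0.02 and 0.18. With the germline sub-clusters weighted as in ctrl, the ratios were 0.15, 0.038 and -0.46. By sign alone, the sum was above ctrl in 11 of 13 sub-clusters in ent-1KO, in 7 of 13 in ent-2KO and in 1 of 11 in ent-1KO;ent-2KD. Sub-clusters of a library are not replicates, and many of these ratios were within counting error. The intervals took in 0 in sub-clusters 1, 5, 6, 8, 9, 10 and 11 for ent-1KO and in all but sub-cluster 12 for ent-2KO. For ent-1KO;ent-2KD they took in 0 in sub-clusters 0, 2, 3, 5 and 8. In ent-1KO 0 of 27 members were called higher (1.76% of all genes) and 1, fbxc-21 with 8 and 14 UMIs, lower (2.0%). In ent-2KO 0 of 26 were called higher (1.73%) and 1, fbxc-30 with 8 and 17 UMIs, lower (2.17%). In ent-1KO;ent-2KD 2 of 24 were called higher (18.3%) and 11 lower (10.2%), and the median log2 ratio of the 24 was -0.51. Whether the class held fewer nuclei of a stage or less of these transcripts in each nucleus cannot be told apart in such a sum. Clustered without integration of the libraries, the summed ratio of ent-1KO;ent-2KD turned to 0.25. That library then had 127 germline-like nuclei outside the oocyte-like class in place of 2856. Of Y46H3C.7-led nuclei it had 7 in place of 433, and of oocyte-like nuclei 765 in place of 422. In ctrl the germline-like nuclei outside the oocyte-like class were 5627 in place of 5479. The germline classes of ent-1KO;ent-2KD thus rest on the integration.

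**Figure D5:**
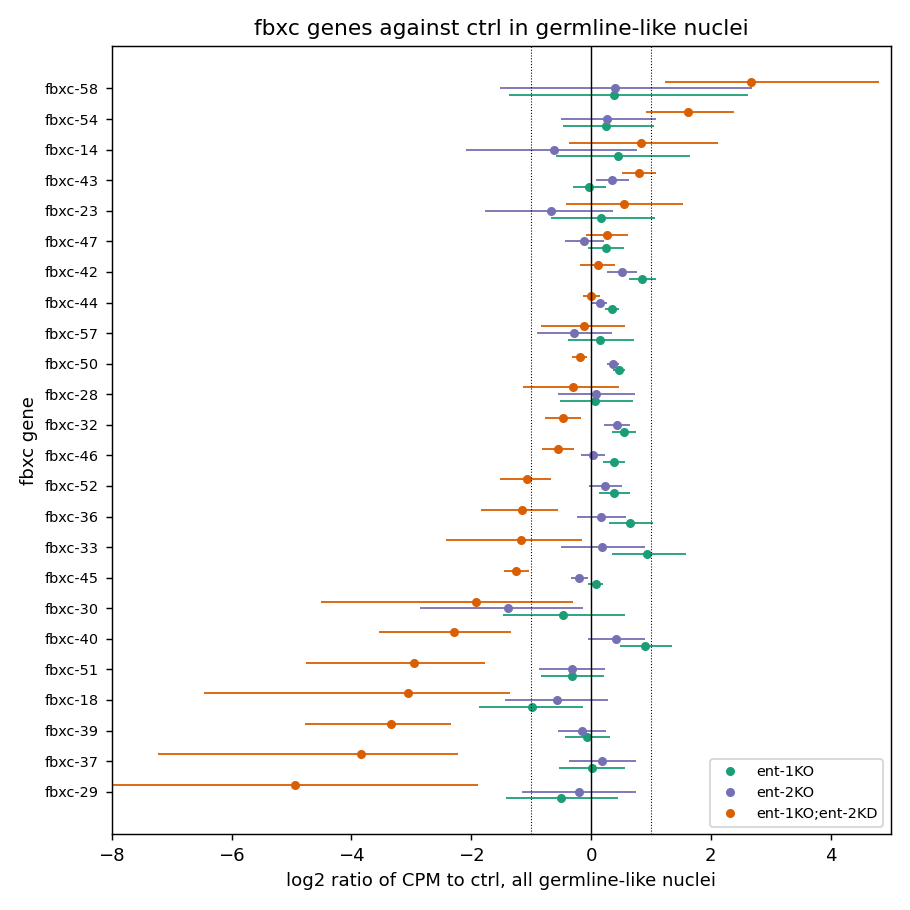
Log2 ratio of CPM to ctrl in all germline-like nuclei for each fbxc gene compared (rows), for ent-1KO, ent-2KO and ent-1KO;ent-2KD (colours), with exact 95% intervals as lines, drawn no lower than -8. Dotted lines mark 2-fold. fbxc-29, with 0 UMIs in ent-1KO;ent-2KD, is drawn with 0.5 UMIs added. The ent-1KO and ent-2KO points lie mostly between the dotted lines, whereas 11 points of ent-1KO;ent-2KD lie below and 2 above them.

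Of the 11 members called lower in ent-1KO;ent-2KD, 6 were highest in embryo-like nuclei (fbxc-18, fbxc-29, fbxc-30, fbxc-37, fbxc-39 and fbxc-51), 3 in Y46H3C.7-led nuclei (fbxc-33, fbxc-36 and fbxc-52), 1 in the clec-266 cluster (fbxc-40) and 1 in oocyte-like nuclei (fbxc-45). Among all 39 members above the minimum, 18 were highest in embryo-like nuclei, so that 6 of 11 was not far from the share in the family. The lowest by the ratio were fbxc-29, with 0 UMIs against 20 in ctrl (upper limit of the log2 ratio -1.89), fbxc-37 (-3.84, from 2 and 47 UMIs), fbxc-39 (-3.34, from 7 and 100), fbxc-12 (0 against 6 UMIs, with an upper limit of 0.17, so that no difference was detectable) and fbxc-18 (-3.05, from 2 and 27). Embryo markers moved with them. They summed to 65.3, 60.9, 67.0 and 33.003 CPM in germline-like nuclei (19, 19, 19 and 15 of 20 with a UMI), against 1634 CPM in embryo-like nuclei of ctrl. Their part in these results was not tested.

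The 2 members called higher were fbxc-58 (2.67, from 21 and 4 UMIs) and fbxc-54 (1.61, 0.92 to 2.39, from 56 and 24). The others of the 5 highest ratios were fbxc-49 (1.99, from 10 and 3 UMIs), fbxc-48 (1.63, from 3 and 1) and fbxc-41 (1.20, from 9 and 5), which had too few UMIs for a call. All 5 were highest in sperm-like or somatic classes. Markers of those classes moved with them in germline-like nuclei. Intestine markers summed to 5863, 5960.2, 4094 and 8764 CPM (23, 24, 24 and 24 of 24 with a UMI), sperm markers to 68.4, 88.0, 85.2 and 167 CPM (25, 25, 24 and 25 of 25) and neuron markers to 343, 355, 324 and 454 CPM (24 of 24 in each), and their part was not tested.

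fbxc-45, among the most read members in the germline, was lower in ent-1KO;ent-2KD than in ctrl in each group of nuclei given here. In all germline-like nuclei it stood at 68.1, 71.9, 59.4 and 28.6 CPM, with a log2 ratio of ent-1KO;ent-2KD to ctrl of -1.25 (-1.46 to -1.04). The ratio was -0.87 in oocyte-like, -0.74 in Y46H3C.7-led, -1.28 in remaining germline-like and -1.53 in somatic nuclei. The estimated share of free RNA in somatic nuclei was 41.6% in ctrl and 47.7% in ent-1KO;ent-2KD. Germline-like nuclei were 60.3% and 27.9% of these libraries. The part of free germline RNA in the somatic ratio was not tested. fbxc-45 was lower than in ctrl in all 11 germline sub-clusters with at least 50 nuclei in both libraries. fbxc-36 was lower in 10 (with 0 higher), fbxc-32 and fbxc-46 in 9 and the summed members in 10 of the 11. fbxc-50 was lower in 6 and higher in 5. Other members went the other way, with fbxc-47 and fbxc-54 higher in 8 and fbxc-43 and fbxc-44 higher in 7. Such counts over all genes are not given here. These counts are of the sign alone, and the sub-clusters of a library are not replicates. In all germline-like nuclei, fbxc-46, fbxc-44 and fbxc-43 had ratios nearer 0 or above it. fbxc-46 stood at 30.5, 39.6, 31.2 and 20.8 CPM (-0.55, -0.82 to -0.29), whereas fbxc-44 stood at 74.8, 95.7, 82.8 and 75.2 CPM (0.01, -0.14 to 0.16) and fbxc-43 at 15.3, 15.01, 19.7 and 26.7 CPM (0.80, 0.51 to 1.09). The interval of fbxc-45 overlapped with none of these.

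By class, the summed level of the members in ent-1KO;ent-2KD against ctrl had log2 ratios of -0.25 (-0.38 to -0.13) in oocyte-like, -0.22 (-0.33 to -0.11) in remaining germline-like, -1.02 (-1.14 to -0.90) in Y46H3C.7-led and -0.71 (-0.88 to -0.55) in somatic nuclei. The part of free germline RNA in the somatic ratio was not tested. The Y46H3C.7-led class of ent-1KO;ent-2KD held 7 nuclei when the libraries were not integrated. The sub-clusters making up the Y46H3C.7-led class differed in share between these libraries. Within the 2 that had at least 50 nuclei in both, the ratios were -0.94 (-1.10 to -0.79) in sub-cluster 7 and -0.79 (-1.08 to -0.51) in sub-cluster 9. Among the remaining germline-like nuclei the ratio was -0.01 (-0.18 to 0.16) in the largest sub-cluster and -0.49 (-0.76 to -0.22) and -1.36 (-2.14 to -0.71) in those with spp-17 among their leading genes. In oocyte-like nuclei 1 of 8 members, fbxc-42, was called higher (9.74% of all genes) and 0 lower (9.17%). fbxc-42 stood there at 12.7, 28.5, 23.6 and 31.4 CPM, so that the ent-1KO and ent-2KO libraries were above ctrl as well. fbxc-50 stood at 228, 243, 240.3 and 189.9 CPM, a log2 ratio of -0.26 in ent-1KO;ent-2KD, and the oocyte-like sub-clusters moved unequally, the inos-1-led and lin-41-led ones being higher and the hmit-1.1-led and H37A05.4-led ones lower than in ctrl. In all kept nuclei the members stood at 380.4, 461, 417 and 174 CPM (-1.13 in ent-1KO;ent-2KD, -1.18 to -1.08), a difference that includes the smaller share of germline-like and embryo-like nuclei in that library.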

How the data were processed

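The authors deposited UMI counts per gene and nucleus, made with Cell Ranger (6.0 per the submitters' processing notes), as raw counts that were not normalized. Whether intronic reads were counted is not given in the sources used here. All deposited barcodes passed the filter of at least 200 genes and at most 10% mitochondrial UMIs. Scrublet (scanpy 1.11.5) gave each nucleus a doublet score within its own library, and those with the highest scores were left out at 0.8% per 1000 nuclei (9.33% to 11.9% of a library). Libraries were integrated with Seurat 5.3.0 in R 4.3.3 (2000 variable genes without the fbxc genes, 30 dimensions, resolution 0.8). Clusters were named where at least 3 markers of a list were raised and the list's median log2 ratio to the median cluster reached 0.5. A name was dropped where the leading genes pointed to another class. The germline-like nuclei were clustered again. UMIs were summed per class and library. A log2 ratio had 0.5 UMIs added. Genes were compared if they had at least 50 UMIs over the libraries and 5 CPM in a class of at least 50 nuclei. They also needed 20 UMIs over both sides, and a call needed a 2-fold difference. Members named for the highest or lowest ratios are also given below 20 UMIs, without a call. Since there was 1 library per condition, no test was made. Intervals were computed with scipy 1.17.1 and the procedure was tested on simulated data.

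The members and gene lists were chosen with earlier results of these data known. Genes named in the text were the 12 members with the most UMIs, the 5 highest and 5 lowest ratios of oocyte-like to other germline-like nuclei and of ent-1KO;ent-2KD to ctrl, the highest member of each class, members highest in a somatic class and the 5 most correlated genes, beside members that make up a count or group. Other members named singly were chosen after their values were seen.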

Additional observations from a re-analysis of the deposited data

Results flagged for a closer look

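The log2 ratio of ent-1KO;ent-2KD to ctrl had opposite signs in different germline classes for 2 abundant members, with counting intervals on opposite sides of 0. For fbxc-50 it was 0.69 in remaining germline-like nuclei, -0.26 in oocyte-like nuclei and -0.98 in Y46H3C.7-led nuclei. For fbxc-42 it was 1.30 in oocyte-like nuclei and -0.90 in Y46H3C.7-led nuclei. With 1 library per condition, the difference between the classes was not tested.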

How the results depend on the processing

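No paired analysis was possible because each condition had 1 library. The summed log2 ratio of oocyte-like to other germline-like nuclei, 0.48 as a mean over the libraries, was 0.24 at clustering resolution 0.4, 0.90 at resolution 1.6, 0.96 with fbxc genes among the variable genes, 0.66 with median of ratios scaling and 1.13 when nuclei were named by their highest marker list. The ratio of germline-like to somatic nuclei, 1.38, was 1.70 with median of ratios scaling, 4.22 with free RNA subtracted and 0.90 with the marker list. The ratio of ent-1KO;ent-2KD to ctrl in germline-like nuclei, -0.34, reversed to 0.25 without integration, where the classes of that library were drawn differently. Its germline-like nuclei outside the oocyte-like class were then 127 in place of 2856, and its oocyte-like nuclei 765 in place of 422. The ratio was -0.51 with median of ratios scaling, -0.15 with free RNA subtracted and -0.087 with the marker list. The cause of these shifts was not tested.

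Some alternatives were chosen after seeing the data. Without the Y46H3C.7-led sub-clusters, the oocyte ratio was 1.13, that of ent-1KO;ent-2KD -0.24 and that of ent-1KO 0.27, from 0.35. With sub-clusters weighted as in ctrl, the ratio was -0.46 for ent-1KO;ent-2KD, 0.15 for ent-1KO and 0.038 for ent-2KO, from 0.16. Leaving out the ent-1KO;ent-2KD library gave 0.43 for the oocyte ratio and 1.30 for germline against soma. The comparisons without the sub-clusters in which spp-17 was a leading gene, with a wider soma, and of the highest class without ent-1KO;ent-2KD were chosen in the same way.

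A minimum of 200 UMIs kept 25 members above it in place of 39. Thinned to 1000 UMIs in place of 500, 37.3% of oocyte-like nuclei of ctrl held a member UMI in place of 24.1%. Rare members were limited by depth, since several ratios rest on fewer than 10 UMIs on 1 side.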
